A study of Homo sapiens with 9 samples.

Results

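The 58 genes described here encode proteins that act in the G2 phase of the cell cycle and in mitosis. They were taken by symbol from a count table of 26364 gene names, all 58 were found, and all 58 passed the expression filter in each of the 3 comparisons. By role they comprised 11 cyclins, kinases and phosphatases, 4 chromosomal passenger genes, 5 spindle checkpoint genes, 5 genes of anaphase promotion and chromatid separation, 6 centromere and kinetochore genes, 9 mitotic kinesins, 9 genes of spindle assembly and cytokinesis, 7 condensin and chromosome genes, and 2 transcription factors. RNA-seq was done in A549, a human lung adenocarcinoma line, to ask what an intergenic *ALK* fusion does in these cells. The 2 control libraries came from A549 cells labelled wild type. The 2 *LA* libraries came from A549 cells in which guides against *LOC388942* and *ALK* had produced the *LOC388942-ALK* fusion. The 3 sgScr libraries came from *LA* cells that also carried a scramble guide, and the 2 sg*FOS* libraries from *LA* cells that also carried a guide against *FOS*, so that both of these groups share the fusion with *LA*. By the study's methods the guides were delivered by lentivirus into Cas9-expressing A549 cells and fusion cells were grown up from single cells, but which clone or clones the *LA*, sgScr and sg*FOS* libraries came from is not given in the sources used here. Which of the study's *FOS* guides each sg*FOS* library carried is not given in the sources used here. Nothing in the labels says that replicates were separate cultures, so the p-values measure only the spread between these libraries, which may be technical.

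Entry into mitosis is driven by CDK1 bound to B-type cyclins, with Aurora and Polo-like kinases acting beside it. The spindle checkpoint then holds back the anaphase-promoting complex until every kinetochore is attached, after which securin and cyclin B are degraded and separase releases the sister chromatids. The mRNAs of most of these genes, though not of all, are made mostly in G2 and M. In a bulk sample such mRNAs are known as markers of the share of dividing cells. Fewer cells in G2 and M cannot be told apart from less mRNA of these genes in each cell. The shared timing of such genes is known to come from promoters with a cell cycle homology region (CHR) and with CCAAT boxes bound by NF-Y. The CHR is bound by the MuvB core of the DREAM complex and of the MYBL2 and FOXM1 complexes.

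Promoter sequences are shown because most of these genes carry the same pair of elements. RefSeq promoters on GRCh38.p14, running from 250 bases before to 50 bases after the start of the gene, were found for 50 of the 58 genes. *AURKA*, *BIRC5*, *BUB3*, *TTK*, *UBE2C*, *TPX2*, *RACGAP1* and *FOXM1* had no entry. In the 4 promoters below, written 5′ to 3′ along the gene's own strand, capitals mark TTTGAA or TTCGAA (the CHR core) and CCAAT, each searched on both strands, so that TTCAAA and ATTGG mark the other strand. *CCNB2* (chr15:59104896-59105195, plus strand) and *PLK1* (chr16:23678639-23678938, plus strand) have a CHR just before the start with CCAAT upstream of it. *NUF2* (chr1:163321704-163322003, plus strand) had the lowest log2 fold change of the 58 genes in sg*FOS* against sgScr and has no CCAAT in this window. *CDC20* (chr1:43358731-43359030, plus strand) had the log2 fold change closest to 0 in that comparison and has both elements.
CCNB2: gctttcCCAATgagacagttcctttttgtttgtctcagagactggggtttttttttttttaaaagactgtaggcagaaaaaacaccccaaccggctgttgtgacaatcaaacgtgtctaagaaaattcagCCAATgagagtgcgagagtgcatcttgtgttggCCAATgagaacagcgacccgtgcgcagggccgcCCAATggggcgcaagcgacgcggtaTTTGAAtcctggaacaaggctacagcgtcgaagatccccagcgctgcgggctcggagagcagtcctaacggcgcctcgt
PLK1: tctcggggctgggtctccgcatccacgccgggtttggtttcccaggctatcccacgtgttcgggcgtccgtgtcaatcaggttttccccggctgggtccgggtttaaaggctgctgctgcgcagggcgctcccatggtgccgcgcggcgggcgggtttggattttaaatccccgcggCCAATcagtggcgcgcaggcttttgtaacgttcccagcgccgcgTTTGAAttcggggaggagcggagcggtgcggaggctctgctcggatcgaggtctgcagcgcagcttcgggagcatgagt
NUF2: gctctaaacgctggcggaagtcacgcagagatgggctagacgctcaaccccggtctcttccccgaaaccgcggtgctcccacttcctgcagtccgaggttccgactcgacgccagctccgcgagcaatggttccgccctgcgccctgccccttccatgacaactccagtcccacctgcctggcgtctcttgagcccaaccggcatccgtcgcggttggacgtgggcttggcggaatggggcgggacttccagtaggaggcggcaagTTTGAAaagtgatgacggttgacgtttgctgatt
CDC20: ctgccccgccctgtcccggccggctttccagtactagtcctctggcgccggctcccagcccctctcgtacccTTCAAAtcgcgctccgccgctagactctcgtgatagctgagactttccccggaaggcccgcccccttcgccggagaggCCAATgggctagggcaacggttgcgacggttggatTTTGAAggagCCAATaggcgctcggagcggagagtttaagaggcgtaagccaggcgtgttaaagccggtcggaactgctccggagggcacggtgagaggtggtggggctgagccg

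A CHR core lay in 37 of the 50 promoters (74.0%) and in 16.6% of all 27305 promoters of the same length. CCAAT lay in 38 (76.0%) and in 35.7% of all promoters, and both lay in 30 (60.0%) and in 6.6% of all promoters. No match of one motif was required to lie clear of the other. The median match lay 24.5 bases before the start for the CHR core and 72 bases before it for CCAAT. The AP-1 motif, the letters TGACTCA or TGAGTCA on either strand, to which FOS and JUN dimers are known to bind, lay in 0 of the 50 promoters and in 4.9% of all promoters. These matches are descriptions of letters within the window and say nothing of binding.

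Total counts ranged from 14507228 to 20456341 per library. *FOS* had 167 and 155 counts in control, 5448 and 1660 in *LA*, 4198, 4037 and 3528 in sgScr, and 1008 and 1113 in sg*FOS*, so the labelled target was lower in both sg*FOS* libraries than in all 3 sgScr libraries and was still counted. Epithelial keratins *KRT7*, *KRT8* and *KRT18* were at 1650 CPM (counts per 1000000 counts of the library, scaled by TMM) or more in every library, and *KRT19*, *CDH1* and *EPCAM* were lower, at 32.6 to 174, 18.5 to 101 and 3.01 to 13.1 CPM. Of the 4 leukocyte genes, *PTPRC* and *CD3E* were at 0 in all 9 libraries and *LYZ* was at 0.632 CPM or less, while *CD14* was counted in all 9 at 8.12 to 42.6 CPM. The summed level of these 4 was 42.6 and 29.3 CPM in control, 15.5 and 13.9 CPM in *LA*, 8.79 to 9.67 CPM in sgScr, and 9.69 and 8.12 CPM in sg*FOS*. Of the 5 fibroblast genes, *COL1A2* and *DCN* were at 0 in 8 of 9 libraries, *LUM* and *PDGFRA* were at 0.737 CPM or less, and *COL1A1* was counted in all 9 at 6.37 to 17.5 CPM. The summed level of these 5 was 18.2 and 7.26 CPM in control, 17 and 15.5 CPM in *LA*, 6.72 to 7.85 CPM in sgScr, and 10.6 and 9.52 CPM in sg*FOS*. The part of these markers in the results was not tested. Replicates of control and of *LA* stood far apart from each other, with a chi-square of their counts per degree of freedom of 125 for control and 58.1 for *LA*, against 1.74 to 2.65 within sgScr and sg*FOS*. The 58 genes together took 0.625% and 0.827% of all counts in control, 0.992% and 0.619% in *LA*, 1.03%, 1.03% and 1.02% in sgScr, and 0.854% and 0.854% in sg*FOS*. The 2 *LA* libraries therefore lay on either side of both sg*FOS* libraries, while the sgScr libraries lay above all others.

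**Figure D1:**
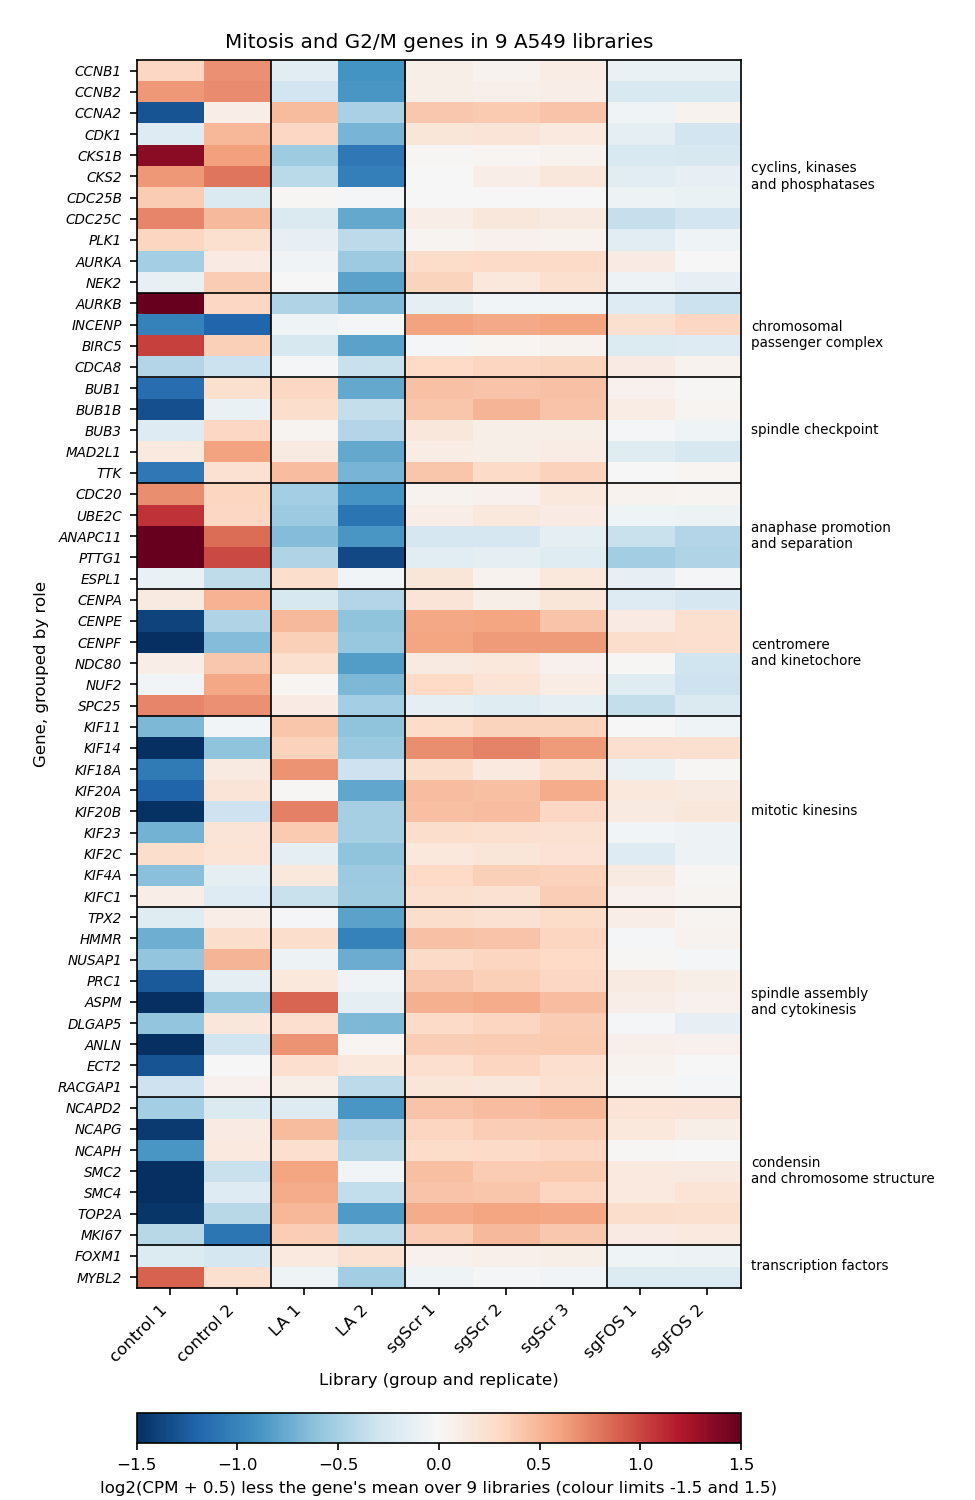
Rows are the 58 genes by role, columns are the 9 libraries, and the colour is log2(CPM + 0.5) less the mean of that gene over the 9 libraries, with colours saturated beyond 1.5 in either direction. LA replicate 1 was higher than LA replicate 2 for 56 of the 58 genes, and both sgFOS libraries were below all 3 sgScr libraries for 57 of them.

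The comparison of sg*FOS* with sgScr sets *LA* cells with a guide against *FOS* beside *LA* cells with a scramble guide. Editing of *FOS* cannot be told apart in it from other differences between these sets of cells, such as culture or clone. The labels give neither. All 58 genes had a lower fitted level in sg*FOS* than in sgScr, and 54 fell at an adjusted p under 0.05 (edgeR's quasi-likelihood test, Benjamini-Hochberg adjustment over all 14196 genes tested). Of all genes tested, 10.5% fell and 12.2% rose in this comparison. The differences were small. The genes that fell did so by 1.1-fold to 1.37-fold, the median log2 fold change of the 58 genes was -0.27 against 0.00 for all genes tested, and none of the 58 passed the fold threshold in the study's methods (0.5 on the log2 scale, in either direction). For 57 of the 58 genes both sg*FOS* libraries lay below all 3 sgScr libraries, as they did for 24.5% of all genes tested. DESeq2 called 52 of these 54 genes lower, without *AURKB* (adjusted p = 0.0614) and *FOXM1* (adjusted p = 0.0536). No gene of the 58 rose, by this test, by an unadjusted p under 0.05 or by DESeq2. The replicates were close, with a median fold between the highest and lowest library of 1.05 in sgScr and 1.03 in sg*FOS*. Both sg*FOS* libraries were shallower than all 3 sgScr libraries, at 14507228 and 14606965 against 17222113 to 20456341 counts, and the part of depth in this result was not tested. The calls rest on the spread within these 2 groups, since a fit in which all 9 libraries shared a single spread called 0 of the 58 genes (3 at an unadjusted p under 0.05). The median log2 fold change in that fit was -0.27, against -0.005 for all genes tested. The share of all genes that it called is not given.

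**Figure D2:**
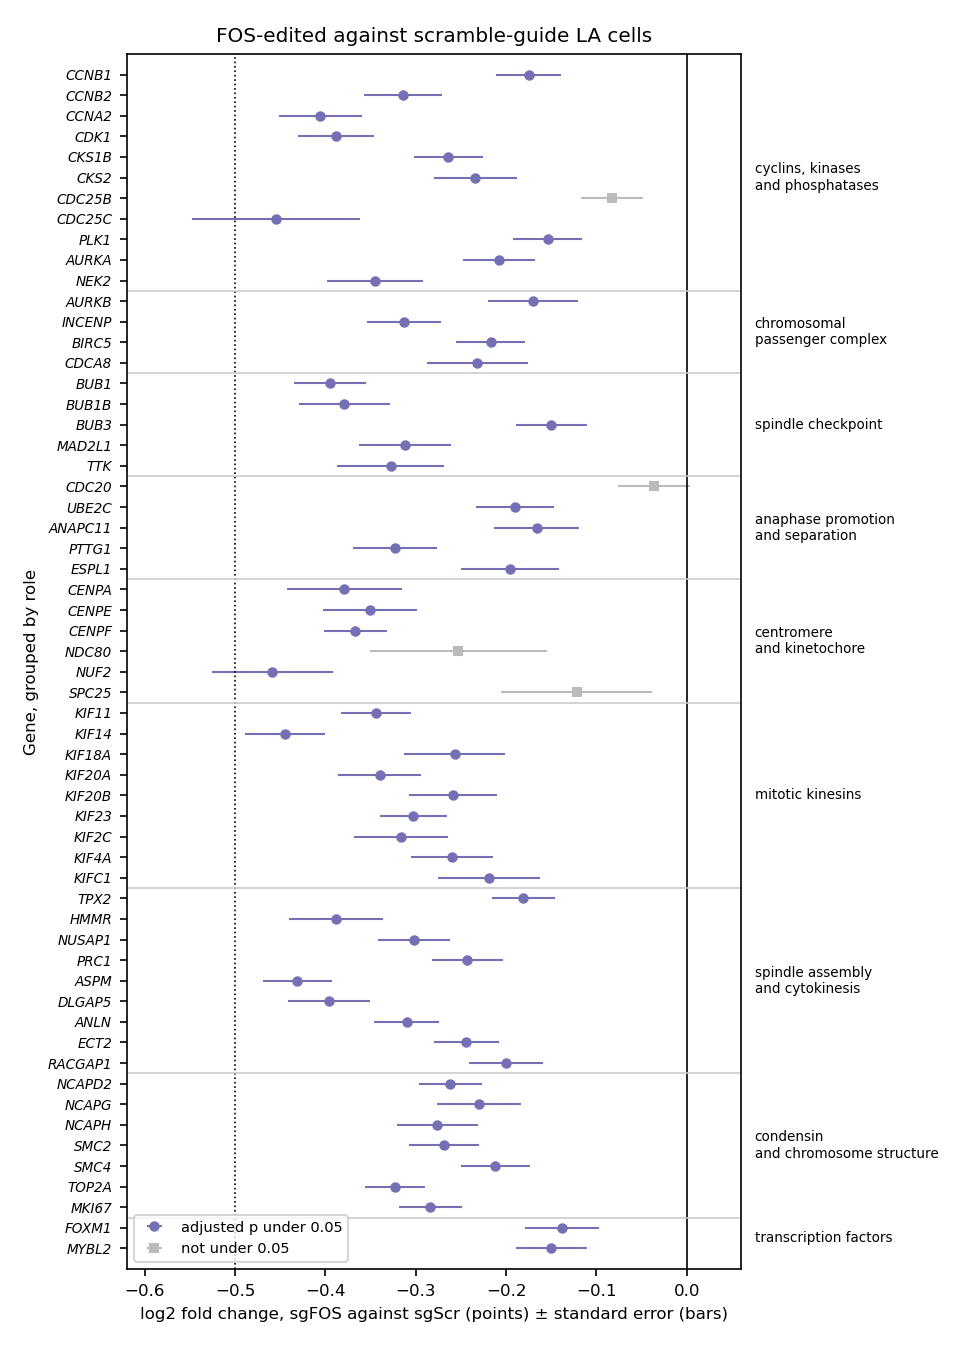
Points are log2 fold changes of sgFOS (2 libraries) against sgScr (3 libraries) from edgeR, bars are their standard errors, and the dotted line is the fold threshold of -0.5. All 58 points lie below 0, from -0.46 for NUF2 to -0.04 for CDC20, and the 4 grey squares mark the genes that did not pass the test.

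Among the cyclins, kinases and phosphatases, 10 of 11 genes fell. *CDK1*, the kinase that drives entry into mitosis, was at 159.3, 159.8 and 155.6 CPM in sgScr and at 126.5 and 114.7 CPM in sg*FOS*, a log2 fold change of -0.39 ± 0.04 (SE, adjusted p = 2.94e-09 by edgeR). *CCNA2*, cyclin A2, was at 99.58, 98.59 and 101.5 CPM in sgScr and at 72.19 and 78.12 CPM in sg*FOS* (log2 fold change -0.41 ± 0.05). The groups did not overlap for either gene. *CDC25C*, a phosphatase that activates CDK1, had the largest change of this role at a low level, 19.93 to 20.89 CPM in sgScr and 14.5 and 15.17 CPM in sg*FOS* (log2 fold change -0.46 ± 0.09). *CCNB1*, cyclin B1, changed less, from 257.2 to 267.6 CPM in sgScr to 231.7 and 232 CPM in sg*FOS* (log2 fold change -0.18 ± 0.04, adjusted p = 0.000323 by edgeR). *PLK1*, the Polo-like kinase, had a log2 fold change of -0.15 ± 0.04 and *AURKA*, Aurora kinase A, one of -0.21 ± 0.04. The CDK subunits *CKS1B* and *CKS2*, cyclin B2 (*CCNB2*) and the centrosome kinase *NEK2* fell as well. *CDC25B*, another CDK1-activating phosphatase, did not pass the test, with 447.7 to 451 CPM in sgScr, 425.9 and 419.6 CPM in sg*FOS* and a log2 fold change of -0.08 (adjusted p = 0.0733 by edgeR), although its groups did not overlap.

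All 4 genes of the chromosomal passenger complex, which corrects faulty kinetochore attachments, fell. *INCENP*, its scaffold, was at 144, 139.8 and 142.5 CPM in sgScr and at 111.3 and 116.8 CPM in sg*FOS* (log2 fold change -0.31 ± 0.04). *BIRC5* (survivin) and *CDCA8* (borealin) had log2 fold changes of -0.22 ± 0.04 and -0.23 ± 0.06, and *AURKB*, its kinase, fell least and was not called by DESeq2. All 5 spindle checkpoint genes fell. *BUB1*, a checkpoint kinase, was at 151.1, 150 and 151.2 CPM in sgScr and at 116.2 and 112.6 CPM in sg*FOS* (log2 fold change -0.40 ± 0.04, adjusted p = 5.79e-10 by edgeR). *BUB1B*, which encodes BUBR1, and *TTK*, the MPS1 kinase, had log2 fold changes of -0.38 ± 0.05 and -0.33 ± 0.06. *MAD2L1* and *BUB3*, which with BUBR1 and CDC20 form the inhibitor of the anaphase-promoting complex, fell too, *BUB3* with the smallest change of the 5.

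Of the genes of anaphase promotion and separation, 4 of 5 fell. *CDC20*, the activator of the anaphase-promoting complex, was the one gene of the 58 whose groups overlapped, at 154.4, 155.9 and 167.1 CPM in sgScr and 155.3 and 153.9 CPM in sg*FOS* (log2 fold change -0.04 ± 0.04, adjusted p = 0.579 by edgeR). *PTTG1*, the securin that restrains separase, was at 91.96, 92.76 and 90.79 CPM in sgScr and at 71.58 and 74.86 CPM in sg*FOS* (log2 fold change -0.32 ± 0.05). *UBE2C*, the ubiquitin-conjugating enzyme of the complex, and *ESPL1*, separase, had log2 fold changes of -0.19 ± 0.04 and -0.20 ± 0.05, and *ANAPC11*, the complex's RING subunit, fell as well.

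Of the centromere and kinetochore genes, 4 of 6 fell. *NUF2*, a subunit of the NDC80 complex that binds microtubules, was at 47.67, 44.7 and 42.04 CPM in sgScr and at 34.09 and 31.07 CPM in sg*FOS* (log2 fold change -0.46 ± 0.07, adjusted p = 1.75e-06 by edgeR). *CENPF*, a large kinetochore protein, was at 410 to 424.6 CPM in sgScr and 326 and 322.6 CPM in sg*FOS* (log2 fold change -0.37 ± 0.04). *CENPA*, the centromeric histone H3, had a log2 fold change of -0.38 ± 0.06, and the kinetochore motor *CENPE* fell as well. *NDC80* and *SPC25*, the other 2 subunits of the NDC80 complex among these 6 genes, did not pass the test, while *SPC24*, outside this list, fell. *NDC80* was at 18.61 to 19.97 CPM in sgScr and at 18.1 and 14.44 CPM in sg*FOS* (log2 fold change -0.25 ± 0.10, adjusted p = 0.057 by edgeR), and *SPC25* had a log2 fold change of -0.12 ± 0.08 (adjusted p = 0.321 by edgeR).

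All 9 mitotic kinesins fell, with a median log2 fold change of -0.30. *KIF14*, which acts in cytokinesis, was at 116.6, 120.4 and 111.4 CPM in sgScr and at 85.27 and 84.97 CPM in sg*FOS* (log2 fold change -0.45 ± 0.04, adjusted p = 4.1e-10 by edgeR). *KIF11*, the motor that pushes the spindle poles apart, and *KIF20A*, a motor of the central spindle, both had a log2 fold change of -0.34. The other 6, *KIF18A*, *KIF20B*, *KIF23*, *KIF2C*, *KIF4A* and *KIFC1*, lay between -0.32 and -0.22 on the same scale.

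All 9 genes of spindle assembly and cytokinesis fell. *ASPM*, which focuses spindle poles, was at 238.8, 242.3 and 226.7 CPM in sgScr and at 176.8 and 172.5 CPM in sg*FOS* (log2 fold change -0.43 ± 0.04, adjusted p = 2.93e-11 by edgeR). *DLGAP5* and *HMMR*, which stabilise and organise spindle microtubules, had log2 fold changes of -0.40 ± 0.05 and -0.39 ± 0.05. *TPX2*, which activates Aurora A on the spindle, had the smallest change of this role, -0.18 ± 0.04. *NUSAP1*, *PRC1*, *ANLN*, *ECT2* and *RACGAP1*, of the spindle, central spindle and contractile ring, lay between -0.31 and -0.20.

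All 7 condensin and chromosome genes and both transcription factors fell. *TOP2A*, the topoisomerase that untangles sister chromatids, was at 1082, 1109 and 1099 CPM in sgScr and at 882.3 and 865.9 CPM in sg*FOS* (log2 fold change -0.32 ± 0.03, adjusted p = 8.2e-10 by edgeR). *MKI67*, which encodes the proliferation marker Ki-67, was at 721.9, 777.1 and 734.8 CPM in sgScr and at 603.7 and 615.7 CPM in sg*FOS* (log2 fold change -0.28 ± 0.03). *NCAPH*, a condensin I subunit, had a log2 fold change of -0.28 ± 0.05, and *NCAPD2*, *NCAPG*, *SMC2* and *SMC4*, the rest of that complex, lay between -0.27 and -0.21. *FOXM1* was at 117.3, 118.5 and 119.7 CPM in sgScr and at 107.7 and 107 CPM in sg*FOS* (log2 fold change -0.14 ± 0.04, not called by DESeq2), and *MYBL2*, which encodes B-MYB, had a log2 fold change of -0.15 ± 0.04. These 2 regulators of the other genes in the list changed less than the median of the list, and that difference in size was not tested.

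Set beside the promoters, the fall was of like size in genes with and without the letters searched for. The median log2 fold change was -0.28 for the 37 genes with a CHR core (from -0.46 to -0.04) and -0.32 for the 13 without (from -0.46 to -0.08). It was -0.29 for the 38 genes with CCAAT and -0.29 for the 12 without it. These medians are given as a description. The CHR core was searched only as TTTGAA or TTCGAA, so a gene counted as without it may hold the element in other letters.

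Of 95 other genes of G2 and M, 47 fell and none rose, where 10.5% of all genes tested fell and 12.2% rose. In these 95, 86 had a negative log2 fold change, with a median of -0.17. In this list 1 gene was higher at an unadjusted p under 0.05, and none by DESeq2. By group, 15 of 19 other spindle and cytokinesis genes fell, 13 of 28 other kinetochore and centromere genes, 7 of 8 cohesin and shugoshin genes, 6 of 14 genes of entry into mitosis, 3 of 14 other subunits or partners of the anaphase-promoting complex, 2 of 3 genes of the second condensin complex, and 1 of 9 genes of the DREAM and MuvB complexes. The 3 largest falls were those of *KNTC1*, a kinetochore protein of the checkpoint, *SPC24*, the fourth subunit of the NDC80 complex, and *DEPDC1*, with log2 fold changes of -0.49, -0.47 and -0.46. *KNTC1* was at 115, 111 and 107 CPM in sgScr and at 77.3 and 80.2 CPM in sg*FOS*.

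The comparison of *LA* with control sets fusion cells beside A549 cells labelled wild type. The fusion, Cas9, the guides, their delivery and growth from single cells cannot be told apart in it. The 58 genes did not move together. Of the 58, 1 rose and 9 fell (edgeR's quasi-likelihood test, adjusted over 14425 genes), where 9.57% of all genes tested rose and 9.94% fell. The median log2 fold change was -0.08 against 0.04 for all genes, 26 genes had a positive and 32 a negative value, and with scaling by library size alone the median of all genes moved to 0.33 and that of the 58 genes to 0.19. In 11 genes both *LA* libraries lay above both control libraries and in 18 genes below them, against 33.8% and 30.0% of all genes, and in 29 genes the groups overlapped. The biological coefficient of variation was 0.329, against 0.0296 in sg*FOS* against sgScr, so changes of the size seen between sg*FOS* and sgScr were not detectable between these libraries.

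**Figure D3:**
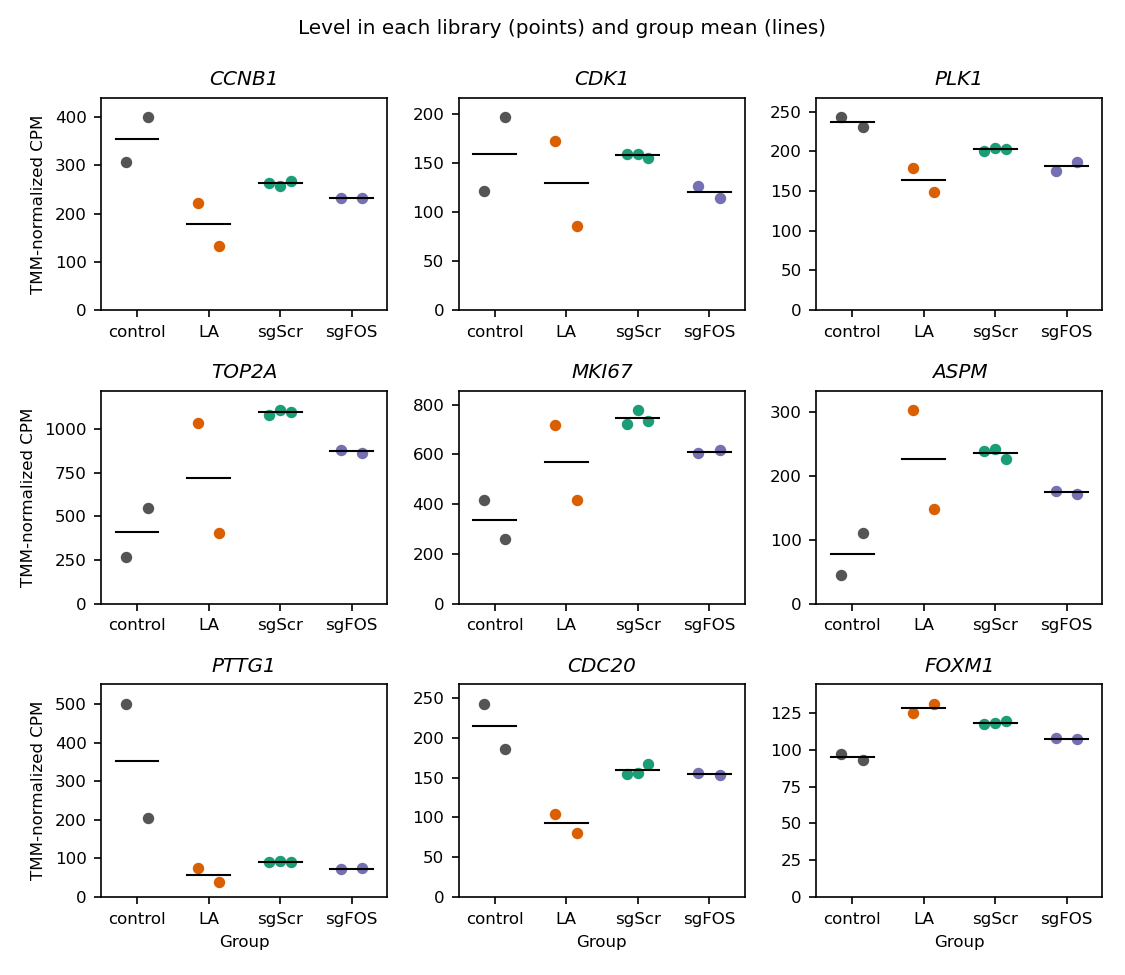
Each panel gives one gene's level in CPM, scaled by TMM over all 9 libraries, with points for libraries, lines for group means and a vertical axis that starts at 0. The 3 sgScr libraries are close together and the 2 sgFOS libraries lie below them for all panels but CDC20, where they overlap, while the LA libraries of TOP2A stand at 1035 and 407.1 CPM.

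The genes that fell were *PTTG1*, *ANAPC11*, *UBE2C* and *CDC20* of anaphase promotion, *CKS1B*, *CKS2* and *CCNB2* of the cyclins and kinases, and *AURKB* and *BIRC5* of the chromosomal passengers. *PTTG1* was at 501.5 and 204.1 CPM in control and at 74.84 and 39.84 CPM in *LA* (log2 fold change -2.63 ± 0.48, adjusted p = 0.00139 by edgeR). *ANAPC11* was at 490.9 and 206.5 CPM in control and 73.24 and 62.47 CPM in *LA* (log2 fold change -2.38 ± 0.45). In both genes the control libraries differed from each other by more than the *LA* libraries did. *CKS1B* was at 438.5 and 264.6 CPM in control and 118.6 and 81.47 CPM in *LA* (log2 fold change -1.83 ± 0.43). *AURKB* had a log2 fold change of -1.64 ± 0.44, *UBE2C* one of -1.57 ± 0.42, *CKS2* one of -1.44 ± 0.41, *CCNB2* one of -1.26 ± 0.41 and *BIRC5* one of -1.25 ± 0.42. The gene that rose was *ASPM*, at 44.38 and 110.7 CPM in control and 303.1 and 148.8 CPM in *LA* (log2 fold change 1.52 ± 0.47, adjusted p = 0.0268 by edgeR).

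These calls moved with transcript length. Of the 9 genes that fell, 8 have a transcript of up to 2500 bp and *BIRC5* has one of 2574 bp, while *ASPM*, which rose, has one of 10863 bp. Over the 58 genes the log2 fold change correlated with length at a Spearman's rho of 0.83, and over all 13982 genes with a length at 0.58, a description across genes in the same 4 libraries. The median log2 fold change was -0.91 for the 21 genes of up to 2500 bp, 0.18 for the 23 genes between 2500 and 5000 bp, and 0.82 for the 14 longer genes. All genes tested had medians of -0.70, 0.15 and 0.82 in the same classes. The 2 control libraries also differed from each other by length, with short genes relatively higher in control replicate 1. Control replicate 1 less replicate 2 had a rho with length of -0.345 over genes passing the filter and -0.505 over the 58. For the *LA* libraries, replicate 1 less replicate 2, these values were 0.0272 and 0.329. The part of this difference between control libraries in the calls was not tested. When the length and GC trends of each library were taken out, 1 of the 58 genes rose and 3 fell. With this correction 754 of all 13982 genes tested rose and 694 fell. *PTTG1* alone of the 58 was called both with and without it (corrected log2 fold change -1.55, adjusted p = 0.0236 by edgeR). *ASPM* was then at 0.44 (adjusted p = 0.359), and the corrected medians of the 3 length classes were -0.29, -0.04 and -0.12. The other genes called with the correction were *INCENP*, higher at 0.93, and the checkpoint genes *MAD2L1* and *BUB3*, lower at -1.33 and -1.21. *BUB3* was assigned a length of 7703 bp from its canonical transcript, while its other coding transcripts run down to 667 bp, so its correction rests on that choice.

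Most of the best known mitotic genes did not pass the test in *LA* against control. *CDK1* was at 122 and 197.5 CPM in control and 173 and 86 CPM in *LA*, and the groups overlapped (log2 fold change -0.33 ± 0.43, adjusted p = 0.632 by edgeR). *CCNB1* was lower in both *LA* libraries, at 222.4 and 133 CPM against 306.5 and 400.1 CPM in control (log2 fold change -1.01 ± 0.42, adjusted p = 0.0906 by edgeR and 0.0476 by DESeq2, which called it lower). *PLK1* was at 243.4 and 230.8 CPM in control and 179.5 and 149 CPM in *LA*, and *AURKA* at 95.81 and 149.2 CPM in control and 131.4 and 93.87 CPM in *LA*. *TOP2A* was at 267.3 and 550.1 CPM in control and at 1035 and 407.1 CPM in *LA*, so the groups overlapped (log2 fold change 0.80 ± 0.48). *MKI67* was at 414.4 and 260.8 CPM in control and 718.4 and 417.9 CPM in *LA* (log2 fold change 0.74 ± 0.44), and with the correction its value was -0.51. *FOXM1* was at 97.42 and 93.32 CPM in control and 124.9 and 131.3 CPM in *LA* (log2 fold change 0.40 ± 0.39, adjusted p = 0.494 by edgeR). None of the 5 spindle checkpoint genes, 6 kinetochore genes, 9 kinesins or 7 condensin and chromosome genes was called by edgeR without the correction or by DESeq2, and 0, 2, 2 and 1 of them had an unadjusted edgeR p under 0.05.

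The 2 *LA* libraries differed in the level of these genes as a whole. LA replicate 1 was higher than LA replicate 2 for 56 of 58 genes, with a median log2 difference of 0.66, where the median difference over all genes was -0.03. Relative to the control mean, the median of the 58 genes was 0.28 in LA replicate 1 and -0.33 in LA replicate 2 on the log2 scale. The control libraries also differed, with control replicate 2 higher for 40 genes and a median log2 difference of 0.50. As given above, their difference went with transcript length. Leaving out a library left a lone sample in its group, which edgeR then assumes to vary like the other group. Medians alone are therefore given. Without LA replicate 1 the median log2 fold change of the 58 genes was -0.53, against 0.019 over all genes tested. Without LA replicate 2 it was 0.28, against 0.003. Without control replicate 1 it was -0.37, against 0.021, and without control replicate 2 it was 0.14, against 0.055.

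Of the 95 other G2 and M genes, 3 rose and 10 fell in *LA* against control, with a median log2 fold change of 0.00. Of all genes tested, 9.57% rose and 9.94% fell, so the falls are not read as particular to this list. The genes below are named as a description. *KNL1* (listed as *CASC5*), the kinetochore scaffold that recruits BUB1, rose from 2.58 and 12.3 CPM to 55.7 and 30.6 CPM (log2 fold change 2.50 ± 0.56, adjusted p = 0.00417 by edgeR), and its corrected value was 1.62 (adjusted p = 0.0366). *RBL2*, which encodes the p130 subunit of DREAM, and *STAG1*, a cohesin subunit, rose by log2 fold changes of 1.65 and 1.44, and neither was called with the correction. The largest falls were those of *PMF1*, of the outer kinetochore, *CENPM*, of the centromere, and *LIN37*, of MuvB, at log2 fold changes of -2.28, -2.05 and -2.01, of which *PMF1* alone was called with the correction.

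The comparison of sgScr with *LA* sets the cells with a scramble guide beside the fusion cells without a further guide, where the guide, its delivery and the time in culture cannot be told apart. Of the 58 genes, 15 were higher in sgScr and none was lower (edgeR, adjusted over 14521 genes), where 10.6% of all genes tested were higher and 12.3% lower. None was lower by an unadjusted p under 0.05 or by DESeq2. The median log2 fold change was 0.46 against -0.02 for all genes, and 52 of the 58 values were positive. In size this median exceeded the -0.27 of sg*FOS* against sgScr, a comparison that shares the sgScr libraries. In 39 genes all 3 sgScr libraries lay above both *LA* libraries, as for 29.5% of all genes tested. On the log2 scale, the median of the 58 genes relative to the control mean was 0.28 in LA replicate 1. It was -0.33 in LA replicate 2 and 0.42 to 0.45 in sgScr. The result depended on which *LA* library was used. Without LA replicate 1 the median log2 fold change was 0.86, and without LA replicate 2 it was 0.14. Either step left a lone *LA* library, so the spread then came from the sgScr libraries alone. Without any one of the sgScr libraries, 0 were higher at an adjusted p under 0.05 and 16 or 17 at an unadjusted p under 0.05. The median was then 0.45 to 0.46, and the share of all genes called is not given.

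The genes higher in sgScr than in *LA* came from 6 of the 9 roles. *NCAPD2*, a condensin I subunit, was at 266.2 and 166.3 CPM in *LA* and at 410.8, 421.3 and 433.1 CPM in sgScr (log2 fold change 0.94 ± 0.20, adjusted p = 0.0229 by edgeR). *UBE2C* was at 64.16 and 43.36 CPM in *LA* and at 99.91, 104.3 and 102.2 CPM in sgScr (log2 fold change 0.91 ± 0.17), and *CDC20* was at 104.4 and 80.91 CPM in *LA* and 154.4 to 167.1 CPM in sgScr (log2 fold change 0.76 ± 0.13). *INCENP* was at 90.07 and 92.31 CPM in *LA* and at 144, 139.8 and 142.5 CPM in sgScr (log2 fold change 0.62 ± 0.08, adjusted p = 0.00604 by edgeR). *KIF20A*, *CKS1B*, *CKS2* and *KIFC1* had log2 fold changes of 0.80, 0.80, 0.76 and 0.70, and *CCNB2*, *AURKA*, *ANAPC11*, *KIF2C*, *CDCA8*, *CENPA* and *AURKB* lay between 0.62 and 0.46. No checkpoint gene, no gene of spindle assembly and neither transcription factor was called, with 1, 3 and 0 at an unadjusted p under 0.05 and 0, 2 and 0 called by DESeq2. *CDK1* (log2 fold change 0.27 ± 0.27), *CCNB1* (0.54 ± 0.21), *PLK1* (0.28 ± 0.10), *TOP2A* (0.59 ± 0.36) and *MKI67* (0.37 ± 0.22) did not pass the test, and *FOXM1* had a value of -0.13 ± 0.08. Of the other 95 G2 and M genes, 12 were higher, where 10.6% of all genes tested were higher and 12.3% lower. The 12 were led by *SPC24*, *CDCA3* and *CDC26*, an anaphase-promoting complex subunit, at log2 fold changes of 1.24, 0.79 and 0.67. The 2 that were lower were *CENPT*, of the inner kinetochore, at -0.44 and *LIN54*, the MuvB subunit that binds the CHR, at -0.41.

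The sg*FOS* libraries did not lie outside the *LA* libraries for most of the 58 genes. For 33 of the 58 genes both sg*FOS* libraries lay between the 2 *LA* libraries, for 17 both lay above them and for 3 both lay below them. No share over all genes is given beside these counts, so they are not read as particular to the 58 genes. The median of the 58 genes relative to the control mean was 0.19 and 0.17 in sg*FOS* on the log2 scale, below 0.44, 0.42 and 0.45 in sgScr and between the 0.28 and -0.33 of *LA*. The comparisons of sgScr with *LA* and of sg*FOS* with sgScr share the sgScr libraries, and values are therefore set side by side with no correlation. *TOP2A* was at 1035 and 407.1 CPM in *LA*, 1082 to 1109 CPM in sgScr and 882.3 and 865.9 CPM in sg*FOS*, and *BUB1* at 137.8 and 64.99 CPM in *LA*, 150 to 151.2 CPM in sgScr and 116.2 and 112.6 CPM in sg*FOS*.

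Divided by transcript length, the mean level over the 9 libraries spanned 7.38 to 246 CPM per kb. *CKS1B*, *ANAPC11*, *PTTG1* and *CKS2*, which are all short, stood highest at 246, 228, 193 and 177 CPM per kb, followed by *CDC25B* and *TOP2A* at 145 and 142 CPM per kb. This mean includes control, where each of these 4 short genes was at its highest. *ANAPC11* was at 546.5 CPM per kb in control and 106.4 in *LA*. In *LA*, *CDC25B* at 143.3 and *TOP2A* at 126.6 CPM per kb lay above *ANAPC11*, *PTTG1* and *CKS2*. *CDC25C*, *ESPL1*, *NDC80* and *CENPE* stood lowest at 9.28, 9.23, 8.61 and 7.38 CPM per kb. *CKS1B* was at 451 CPM per kb in control and 128, 226 and 188 CPM per kb in *LA*, sgScr and sg*FOS*, the highest of these 4 short genes in each group but control. *PTTG1* was at 493 CPM per kb in control and 80.2, 128 and 102 CPM per kb in *LA*, sgScr and sg*FOS*, below *CKS2*, *CDC25B* and *TOP2A* in each of the 3 fusion groups. Counting reads without regard to strand would mix *CCNA2*, *HMMR*, *KIF20A*, *NCAPG*, *PLK1* and *PRC1* with genes on the opposite strand whose exons they overlap, and the strand setting of the counting is not given in the sources used here.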

How the data were processed

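RNA-seq was done in 9 libraries of A549 cells (2 control, 2 *LA*, 3 sgScr, 2 sg*FOS*), grouped by the sample labels. The deposited table holds whole-number read counts for each gene, without normalization by the authors. Their notes and methods name STAR 2.7.10b, hg19 and DESeq2 1.26.0, while the counting program, annotation and strand setting are not given in the sources used here. There were 0 unused sample columns, and 28 date-like gene names stayed in the library sizes unnamed.

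Tests were run with edgeR 4.0.16 in R 4.3.3 (TMM, filterByExpr, quasi-likelihood test, two-sided, Benjamini-Hochberg adjustment over all genes tested) on the libraries of each comparison alone. A call is an adjusted p under 0.05, and SE is the size of the log2 fold change divided by the square root of F. CPM were scaled by TMM over all 9 libraries, with 0.5 added before logs. To correct for length and GC, a fit used a loess curve (span 0.5) per library as an offset, with GENCODE canonical transcripts on GRCh37. Promoters came from RefSeq through Python 3.11.15. Procedures were tested on simulated counts of independent libraries. The changes put into them were larger than those called in sg*FOS* against sgScr. The simulation therefore says nothing of changes of that size or of technical replicates.

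The 58 genes, their roles and the 95 other genes were chosen with earlier results of these data known. Named for each comparison were the 3 largest changes called per role, *CDK1*, *CCNB1*, *PLK1*, *AURKA*, *TOP2A*, *MKI67* and *FOXM1*, and of the other genes the 3 largest calls per direction. Further genes were named after their values were seen. Alternatives were DESeq2 1.42.0, its size factors, library size alone, no filter, a mean of at least 50 counts, all 9 libraries in a fit, the replicate number as a block, the correction, the fold threshold of the study's methods, and leaving out each library. The crossed block was added after seeing the data.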

Additional observations from a re-analysis of the deposited data

How the results depend on the processing

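For sg*FOS* against sgScr, 54 genes fell. With either sg*FOS* library left out, the median log2 fold change was -0.275 or -0.271. The count that fell was 52 with DESeq2 and 54 with the replicate number as a block. It was 53 to 55 with each sgScr library left out in turn. It was 0 with all 9 libraries in a fit and 0 with the study's fold threshold. All 58 values stayed negative with either other scaling, either other filter, DESeq2, the block and the correction.

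For *LA* against control, where 1 gene rose and 9 fell, the count that rose was 2 with DESeq2, 2 with library size alone, 2 with no filter, 4 with a mean of at least 50 counts, 7 with all 9 libraries in a fit, 0 with the replicate block (3 at an unadjusted p under 0.05), 7 with the study's thresholds on unadjusted p and 0 to 15 with each library left out. The count that fell was 11 with DESeq2 (*CCNB1* and *CDC25C* added), 4 with library size alone, 16 with all 9 libraries, 4 with the replicate block, 3 with the length and GC correction and 0 to 11 with each library left out. The median of the 58 genes, -0.08, ran from -0.529 without LA replicate 1 to 0.279 without LA replicate 2. *CDK1* turned to 0.044 with the correction and ran from -0.957 without LA replicate 1 to 0.113 without LA replicate 2, with 0.004 without control replicate 2. *AURKA* turned to 0.108 with library size alone, 0.16 with the correction, and ran from -0.476 without control replicate 1 to 0.148 without control replicate 2, with 0.1 without LA replicate 2. *TOP2A* ran from -0.072 without LA replicate 1 to 1.35 without control replicate 2, and *MKI67* to -0.507 with the correction.

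For sgScr against *LA*, the 15 higher genes became 6 with all 9 libraries, 5 with the replicate block and 0 to 56 with each library left out, and the lower genes 0 to 12. The median ran from 0.141 to 0.859, and *CDK1* ran from -0.146 without LA replicate 2 to 0.876 without LA replicate 1. The cause of these moves was not tested.

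Same-numbered replicates deviated from their group means with a correlation of -0.248 in *LA* against control. The values were -0.131 and 0.0178 in sg*FOS* against sgScr, and -0.0137 and -0.0203 in sgScr against *LA*. The labels give only a replicate number, and with so few libraries these values cannot settle whether samples were paired. With the numbers crossed in *LA* against control, a pairing chosen after seeing the data, 6 genes rose.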
